A study of Rattus norvegicus with 24 samples.

Results

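The 8 genes described here make, store, take up and break down catecholamines: Th, Gch1, Ddc, Dbh, Slc18a2, Slc6a3, Maoa and Maob. They were followed in the supraoptic nucleus of the rat during water deprivation. The members are all 13 probe sets whose only symbol in the array's annotation is one of these genes, of 31042 probe sets in all; 14217 genes have such a probe set. The genes were selected on the same arrays' dehydrated against control values, in which Th stood out. The dehydration values below are therefore given as a description with their errors, and no p-value is printed for a member in those contrasts.

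Each Affymetrix array was hybridised with RNA from a pool of 5 Sprague Dawley rats. Of 24 samples 19 had values and 18 were used, in 4 groups: 4 euhydrated control females, 4 females after 72 hours of dehydration, 5 control males and 5 males after 3 days of dehydration. The males were 10 to 12 weeks old, and the labels give no age for the females. Male RNA came from QIAzol and RNeasy columns and an Ambion amplification kit, and female RNA from Trizol and Affymetrix labelling, so each sex is also an array set of its own. The table held no numbers for the 5 samples from lactating rats (day 11), and lactation was not analysed here. The labels do not name separate cultures or single animals behind an array, and the design text lets pooled samples stand for biological and technical replicates alike, so errors measure the spread between these pools. Tissue was pooled, and fewer cells of a type and less RNA per cell cannot be told apart.

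The supraoptic nucleus holds the magnocellular neurons that make vasopressin and oxytocin, and it is innervated by noradrenergic fibres from the brainstem. Tyrosine hydroxylase, the product of Th, turns tyrosine into L-DOPA and sets the pace of catecholamine synthesis. It needs tetrahydrobiopterin, whose synthesis starts with GTP cyclohydrolase 1, the product of Gch1. Aromatic amino acid decarboxylase (Ddc) turns L-DOPA into dopamine, dopamine beta-hydroxylase (Dbh) turns dopamine into noradrenaline, the vesicular transporter VMAT2 (Slc18a2) loads monoamines into vesicles, the dopamine transporter (Slc6a3) takes dopamine back up, and the monoamine oxidases (Maoa and Maob) break monoamines down. Th messenger RNA is known to appear in vasopressin neurons under osmotic load.

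The proximal promoters of Th and Slc18a2 are shown because these were the only 2 of the 8 genes whose windows held a full cAMP response element, the letters TGACGTCA that CREB and related factors bind. Both come from RefSeq on GRCr8 and run from 250 bases before the annotated start to 50 bases after it, read 5′ to 3′ on the gene's strand, with the element in capitals. The Th window lies at chr1:207508169-207508468 on the minus strand and the Slc18a2 window at chr1:268399771-268400070 on the plus strand.
Th: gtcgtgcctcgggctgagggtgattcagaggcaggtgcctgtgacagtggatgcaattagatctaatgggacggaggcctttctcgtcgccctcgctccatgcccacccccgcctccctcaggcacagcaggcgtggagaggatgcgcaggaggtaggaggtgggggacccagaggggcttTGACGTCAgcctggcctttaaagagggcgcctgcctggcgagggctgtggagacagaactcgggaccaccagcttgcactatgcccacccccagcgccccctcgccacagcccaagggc
Slc18a2: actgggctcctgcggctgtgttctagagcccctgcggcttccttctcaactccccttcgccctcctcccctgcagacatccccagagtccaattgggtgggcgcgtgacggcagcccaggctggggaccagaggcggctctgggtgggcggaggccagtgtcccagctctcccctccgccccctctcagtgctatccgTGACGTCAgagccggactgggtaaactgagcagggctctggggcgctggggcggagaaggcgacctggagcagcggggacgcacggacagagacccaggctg

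The element lay 69 to 62 bases upstream of the start in Th and 52 to 45 bases upstream in Slc18a2. All 8 genes were found in the promoter table, with 10 windows because Ddc has 3 annotated starts. TGACGTCA reads the same on both strands, and 612 of 33469 RefSeq windows of this length (1.83%) held it. The shorter core TGACG, searched on both strands and contained in the full element, was in 21.2% of windows. Among the members it also stood outside the full element in Slc18a2, and in Gch1, Dbh, Slc6a3 and Maoa. The AP-1 motif TGANTCA, which Fos and Jun proteins bind, was in 7.33% of windows and matched in Th and in 1 of the Ddc windows. AAAGGTCA, the motif of the NR4A orphan receptors, was in 1.43% of windows and matched in 1 Ddc window. None of these 4 motifs matched in the Maob window. A match describes the letters of a window and was not tested as a binding site.

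The arrays that the labels place in the supraoptic nucleus were read against its 2 hormone genes. Avp signal lay between 3644 and 7666 on the 8 female arrays used and between 4337 and 5928 on the male arrays, and Oxt signal between 3001 and 6698 and between 3872 and 5572. Dehydrated female array 5, titled CH2770, read 50.6 for Avp and 26.0 for Oxt and is left out of all values below unless named. Its log2 values correlated at 0.80 to 0.824 with those of the other female arrays, which correlated with each other at 0.925 to 0.973. The median signal of the arrays used was between 36.1 and 46.5, and no pair of arrays held identical values.

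Signals are the deposited linear values, scaled by the authors so that each array's trimmed mean is about 100. Each fold change sets the dehydrated group over its control and is a log2 value after rescaling and adding an offset of 32, with the SE of the limma fit. Such values understate changes of dim probe sets. A probe set was tested if its mean log2 value was above the 30th percentile of the fit, and passed if its Benjamini-Hochberg adjusted p over all 21729 probe sets tested was under 0.05. In each array set 9 of the 13 member probe sets, covering 6 genes, were above that filter. Both Gch1 probe sets, the Dbh probe set and Slc6a3 1368602_at were below it in each set. Slc18a2 1384933_at was above it in females through the dehydrated arrays only, since its control mean was below the filter. Levels are not used to compare the expression of different genes, since the probes of each probe set bind with different strength. The summed signals of lists below add the signals as read, so bright probe sets weigh most in them.

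Th was the member with the largest difference in both sexes, and it was higher with dehydration in each. Its probe set 1387075_at read 127.3, 80.9, 98.3 and 96.8 on the 4 control female arrays and 401.6, 435.7, 460.6 and 359.1 on the 4 dehydrated female arrays. In males it read 179.5, 149.1, 199.9, 148.6 and 221.0 in controls and 424.8, 441.2, 623.0, 580.3 and 540.2 after dehydration. Every dehydrated array lay above every control array of its sex, the nearest pair being 359.1 against 127.3 in females and 424.8 against 221.0 in males.

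The mean Th signal was 100.8 ± 19.3 (SD, n = 4) in control females and 414 ± 44.0 (n = 4) in dehydrated females, a log2 fold change of 1.98 ± 0.14 (SE), or 3.95-fold. In males it was 180 ± 31.7 (SD, n = 5) and 522 ± 86.5 (n = 5), a log2 fold change of 1.51 ± 0.12, or 2.84-fold. Th passed the threshold in both sets. By size it stood at place 11 among the rises of 21729 probe sets in females and at place 24 in males. In females 2.96% of all probe sets passed, 1.77% upward and 1.19% downward, and in males 17.7%, with 8.32% upward and 9.38% downward. These shares stand beside the members' counts as background, and nothing is read from the members' share since dehydration chose them.

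**Figure D1:**
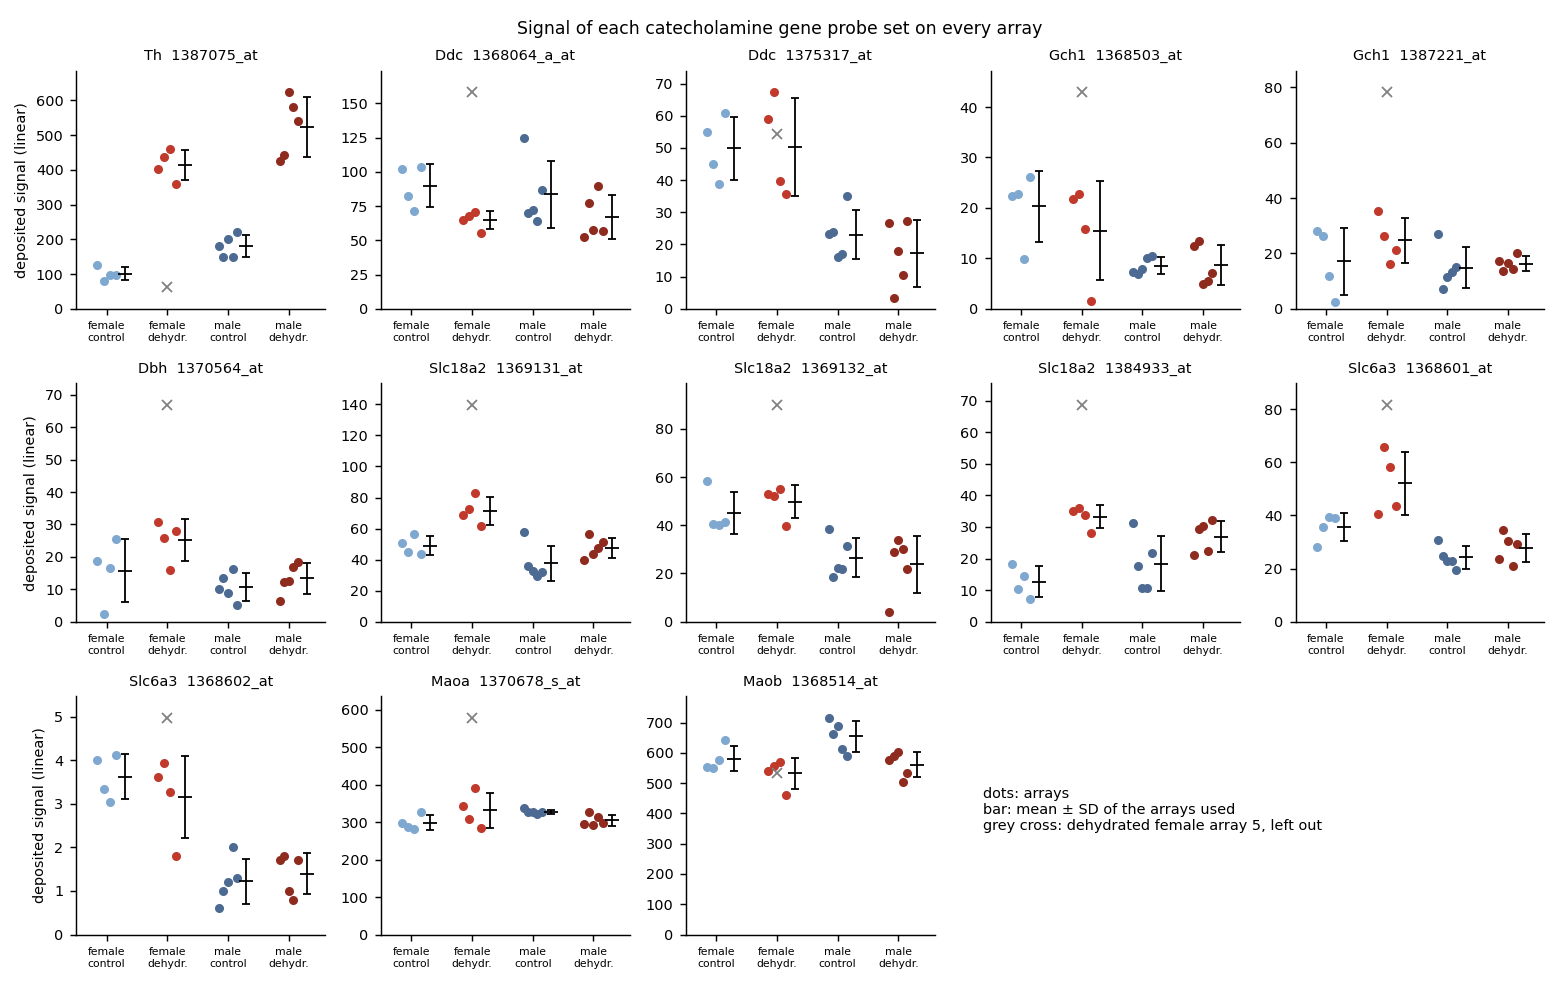
Deposited linear signal of the 13 probe sets of the 8 catecholamine genes on every array, 1 panel per probe set, each y axis starting at 0. Dots are arrays in the 4 groups, bars are the mean ± SD of the arrays used, and grey crosses mark dehydrated female array 5, left out. The Th dots of the dehydrated groups, 359.1 to 460.6 in females and 424.8 to 623.0 in males, stand clear of the controls, while the control and dehydrated dots of most other probe sets lie close together.

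The cofactor enzyme gene Gch1 was dim, and no difference larger than its spread was seen. Probe set 1368503_at read between 9.92 and 26.2 in control females and between 1.51 and 22.8 in dehydrated females, and between 6.9 and 10.5 and between 5.0 and 13.5 in males. Probe set 1387221_at had means of 17.1 ± 12.2 and 24.8 ± 8.18 in females (SD, n = 4 each) and of 14.9 ± 7.46 and 16.4 ± 2.62 in males (n = 5 each). Control and dehydrated groups overlapped for both probe sets in both sexes. In the fit without a filter the log2 fold changes were -0.40 ± 0.41 and 0.56 ± 0.41 in females and -0.015 ± 0.19 and 0.16 ± 0.22 in males. The 2 probe sets differed in sign in each sex.

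Ddc, which completes dopamine synthesis after Th, had no probe set past the threshold. Its log2 fold changes were below 0, but that of 1375317_at in females was within its SE of 0 (-0.0084 ± 0.21). That value changed sign in 8 of 18 alternative settings. Probe set 1368064_a_at read 102.0, 82.4, 71.7 and 103.6 in control females against 65.0, 67.5, 70.8 and 55.5 in dehydrated females. The dehydrated arrays all lay below the controls, by less than 1 unit at the nearest pair, and the log2 fold change was -0.43 ± 0.15. In males it read between 63.9 and 124.7 in controls and between 52.7 and 90.0 after dehydration, with overlap, and the log2 fold change was -0.28 ± 0.17. Without overlap upward or downward there were 5.31% and 7.03% of all probe sets in females, and 6.82% and 5.84% in males.

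The other Ddc probe set, 1375317_at, had no such gap in females, where its means were 49.9 ± 9.90 and 50.4 ± 15.2 (SD, n = 4 each) and its log2 fold change -0.0084 ± 0.21. In males its means were 23.1 ± 7.58 and 17.2 ± 10.4 (n = 5 each), and its log2 fold change was -0.42 ± 0.30. One dehydrated male array read 3.4 on it, and the groups overlapped. In males its dehydrated mean was below the level of the filter.

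Dbh, the enzyme of noradrenaline synthesis, was below the filter in both sets. It read 18.6, 2.41, 16.6 and 25.5 in control females and 30.9, 25.8, 16 and 28.1 in dehydrated females. In males it read between 5.2 and 16.2 in controls and between 6.3 and 18.4 after dehydration. Its groups overlapped in both sexes, with log2 fold changes of 0.63 ± 0.37 and 0.20 ± 0.23 in the fit without a filter.

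The vesicular transporter gene Slc18a2 was the only member besides Th with a probe set that passed upward, in females. Probe set 1384933_at read 18.4, 10.3, 14.6 and 7.29 in control females and 35.0, 36.2, 33.9 and 28.0 in dehydrated females. The groups did not overlap, and the means were 12.7 ± 4.85 and 33.3 ± 3.61 (SD, n = 4 each), for a log2 value of 1.09 ± 0.24. In males the same probe set read 31.3, 17.7, 10.7, 10.8 and 21.6 in controls and 21.0, 29.3, 30.2, 22.3 and 32.1 after dehydration. The male groups overlapped through control array 1, and the log2 fold change of 0.48 ± 0.22 did not pass. The female call is the one of a probe set that came above the filter through its dehydrated arrays, and it passed in 10 of 13 alternative settings in which it could be tested. It did not pass without control female 3 (1.15), without control female 4 (0.94) or with array 5 (1.27). Without any 1 of the 4 dehydrated females, and with the filter at the 50th percentile, it was below the filter and was not tested.

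A second Slc18a2 probe set, 1369131_at, read 50.9, 44.8, 56.7 and 43.4 in control females and 68.9, 72.9, 83.1 and 61.5 in dehydrated females. These groups did not overlap either, but the log2 fold change of 0.49 ± 0.15 did not pass. In males its means were 37.5 ± 11.5 and 47.7 ± 6.43 (SD, n = 5 each), the groups overlapped and the log2 fold change was 0.32 ± 0.16. Without control male 1, whose signal of 57.7 was the highest on this probe set in males, the male log2 fold changes of 1369131_at (0.47) and 1384933_at (0.65) both passed. The third, 1369132_at, had log2 fold changes of 0.13 ± 0.17 in females and -0.23 ± 0.31 in males. That male value was within its SE of 0. Dehydrated male 1 read 4.1 on 1369132_at, against 21.9 to 33.9 on the other dehydrated males. Without that array the male log2 fold change was 0.12. The 3 probe sets of this gene thus differed in size, and in males they differed in sign only with that array included. Their target positions on the transcript were not given.

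Slc6a3, which marks dopamine neurons, was dim. Probe set 1368601_at read 28.2, 35.5, 39.3 and 39.0 in control females and 40.6, 65.9, 58.1 and 43.5 in dehydrated females. The dehydrated arrays all lay above the controls, but the log2 fold change of 0.46 ± 0.19 did not pass. In males its means were 24.2 ± 4.26 and 27.7 ± 5.42 (SD, n = 5 each), with overlap and a log2 fold change of 0.15 ± 0.15. Probe set 1368602_at read 4.12 or less on all 18 arrays.

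The monoamine oxidase genes gave 1 call between them, that of Maob in males. Maoa (1370678_s_at) read 296.5, 287.0, 281.1 and 326.7 in control females and 342.1, 308.5, 391.5 and 283.6 in dehydrated females, with a log2 fold change of 0.14 ± 0.12. In males its means were 328 ± 5.32 and 305 ± 14.6 (SD, n = 5 each), and its log2 fold change was -0.10 ± 0.056. Neither passed, and both sets of groups overlapped.

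Maob (1368514_at) fell in males. It read 715.1, 662.1, 688.7, 613.6 and 591.0 in control males and 575.7, 591.0, 601.4, 502.6 and 533.5 in dehydrated males, and its log2 fold change was -0.22 ± 0.068, or 1.16-fold lower. The groups met at 591.0 and overlapped. In females the means were 581 ± 42.3 and 532 ± 49.6 (SD, n = 4 each), and the log2 fold change of -0.13 ± 0.11 did not pass. The male call held in 9 of 19 alternative settings and was lost, among others, with arrays centred on their median (-0.14) and without a filter.

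Counted together, 2 of the 9 member probe sets tested passed upward in females and 0 downward, and 1 upward and 1 downward in males. Over all probe sets tested, 1.77% passed upward and 1.19% downward in females, and 8.32% and 9.38% in males. The groups did not overlap for 4 members upward and 1 downward in females, and for 1 upward in males. Over all probe sets tested, 5.31% upward and 7.03% downward did not overlap in females, and 6.82% and 5.84% in males. The median log2 fold change of the 9 member probe sets was 0.14 in females beside -0.028 over all probe sets tested, and -0.10 in males beside -0.042.

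**Figure D2:**
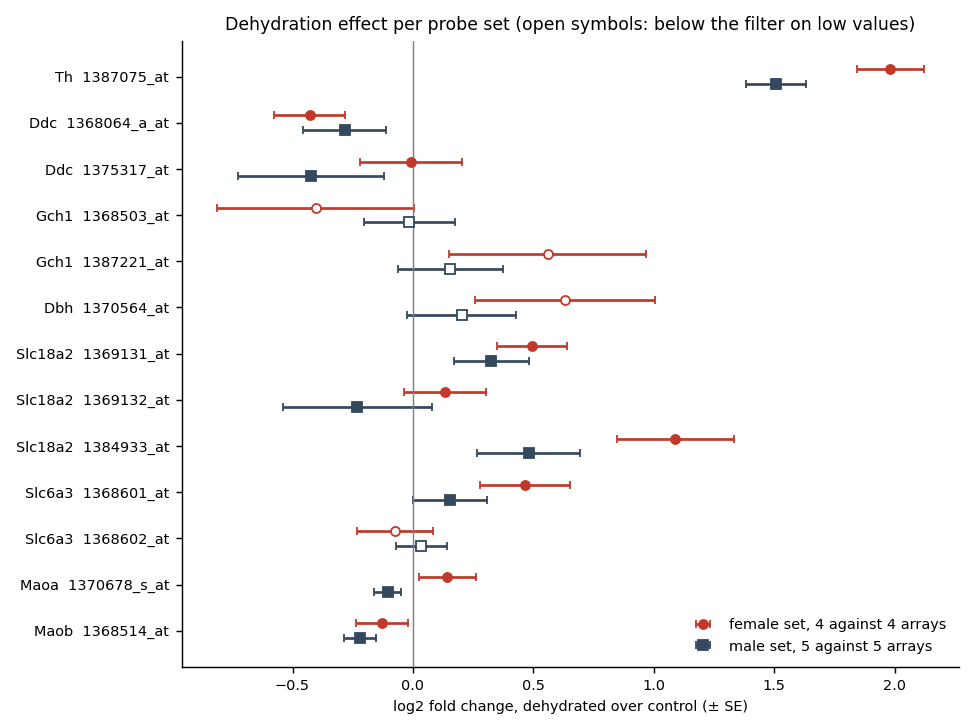
Log2 fold change, dehydrated over control, with its SE for each member probe set, red circles for the female set (4 against 4 arrays) and dark squares for the male set (5 against 5); open symbols are probe sets below the filter on low values. Th lies at 1.98 and 1.51, Slc18a2 1384933_at at 1.09 and 0.48, and the other values between -0.43 and 0.63.

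The size of the dehydration effect was next set between the array sets, each against its own controls. This difference is built from the same arrays and dehydration effects that chose the genes. The p-values of members in it are therefore not independent of that choice and are given as a description. By limma 7 of 21729 probe sets (0.0322%) passed for it, 0.0184% upward and 0.0138% downward, and 0 of the 9 member probe sets tested did, with 2 at an unadjusted p under 0.05, Th and Maoa. The female effect minus the male effect was 0.48 ± 0.20 for Th (limma adjusted p = 0.411), 0.25 ± 0.12 for Maoa (0.486) and 0.61 ± 0.32 for Slc18a2 1384933_at (0.555). A difference of that size for Th was not shown, and equal effects were not shown either. Sex, extraction, labelling and the processing software change together between the sets and cannot be told apart.

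The control arrays of the sets were also compared, without any dehydrated array. They are the same controls that enter the dehydration effects above, those of Th included, and were part of the values that chose the genes. The p-values of members here and in the next paragraph are therefore not independent of that choice and are given as a description. Here 27.3% of all probe sets passed, 14.8% higher and 12.4% lower in females, and 3 of the 8 member probe sets tested passed, 2 higher and 1 lower. The groups did not overlap for 12.1% of all probe sets upward and 10.1% downward, and for 2 and 1 of the 8 members. Th was lower in control females, with 80.9 to 127.3 against 148.6 to 221.0 in control males and no overlap. Its log2 difference, female minus male, was -0.80 ± 0.15 (limma adjusted p = 0.00247), and it passed in all 17 alternative settings, at -0.95 to -0.70. Across the 4 groups the order of Th was thus control females, control males, dehydrated females and dehydrated males. The dehydrated females overlap the dehydrated males, with 2 of their 4 arrays inside the male range, and the other steps of the order have no overlap. Signals of the sets come from different software, so this order is a description.

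Ddc 1375317_at was higher in control females than in control males, at 0.95 ± 0.20 (limma adjusted p = 0.00564), with 38.8 to 60.9 against 16.1 to 35.1. The other Ddc probe set differed by 0.12 ± 0.18 (0.634), or by -0.032 with arrays centred on their median. Slc18a2 1369132_at was higher in females at 0.66 ± 0.20 (0.0262) and lost that call in 6 of 16 settings, among them quantile normalization and centring. Slc6a3 1368601_at differed by 0.46 ± 0.17 (0.0608), Slc18a2 1369131_at by 0.36 ± 0.18 (0.151), Maoa by -0.14 ± 0.074 (0.185) and Maob by -0.17 ± 0.082 (0.142). Centring on the median moved the median of all probe sets by -0.15 here and turned the split from 3223 higher and 2701 lower to 1581 and 4792. Under it Maoa (-0.29) and Maob (-0.32) passed as lower in females.

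Other genes of the pathway were read from 6 lists, with 73 genes on the array. In females 53 were tested, of which 3 rose and 0 fell; in males 51 were tested, of which 9 rose and 5 fell. The 3 that rose in both sets were Fos, Nr4a1 and Ywhaz. Background shares are those given for Th. These lists and the marker lists below were chosen with earlier results of these data known. The p-values printed for their genes are therefore given as a description.

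Transcription factors of catecholamine neurons, listed together with activity-regulated factors, held the largest rises. Whether any of them acted on the Th promoter here was not tested. Fos, a component of AP-1, rose from 74.6 ± 20.9 to 293 ± 89.8 in females (SD, n = 4 each; log2 fold change 1.88 ± 0.22, limma adjusted p = 0.0012) and from 79.6 ± 36.4 to 305 ± 19.3 in males (n = 5 each; 1.94 ± 0.18, 7.4e-06). Nr4a1, an orphan nuclear receptor induced by activity, rose by 0.95 ± 0.14 (0.00608) and 1.02 ± 0.14 (0.000186). Its relative Nr4a3 rose in males by 0.61 ± 0.17 (0.0253; lost in 5 of 18 settings), with 0.088 ± 0.21 in females. Nr4a2, which dopamine neurons require, gave 0.43 ± 0.26 and 0.085 ± 0.15 and did not pass. In all 2 of 12 genes rose in females and 3 of 13 in males, none fell, and the medians were 0.0068 and -0.036.

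Genes that regulate tyrosine hydroxylase protein include 14-3-3 proteins, which bind the phosphorylated enzyme, and its kinases and phosphatase. The 14-3-3 gene Ywhaz rose by 0.45 ± 0.11 in females (limma adjusted p = 0.0453; lost in 12 of 18 settings) and by 0.33 ± 0.043 in males (0.000146). In males Ywhag, another of them, rose by 0.20 ± 0.042 (0.00461), the protein kinase A subunit Prkaca by 0.26 ± 0.071 (0.0188) and the phosphatase subunit Ppp2r2a by 0.19 ± 0.062 (0.0445; lost in 11 of 19 settings). The kinase gene Rps6ka5 fell in males by 0.52 ± 0.13 (0.0119). Of 13 genes tested, 1 rose in females and 4 rose and 1 fell in males, with medians of 0.083 and 0.11.

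Of the biopterin genes listed apart from Gch1, none passed upward in either set. Of 5 tested, 0 passed in females by limma (0 at an unadjusted p under 0.05; the smallest adjusted p was that of Akr1b1, 0.501, at 0.16 ± 0.12). In males Pcbd2, which recycles the spent cofactor, fell by 0.22 ± 0.055 (limma adjusted p = 0.0118). The medians were -0.29 and -0.22. Qdpr, the reductase that regenerates the cofactor, gave -0.10 ± 0.18 and -0.046 ± 0.052.

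Of 9 other genes of catecholamine synthesis, transport and breakdown, 0 passed in females by limma (2 at an unadjusted p under 0.05), and 2 rose and 3 fell in males. Cyb561, the granule cytochrome that supplies reducing power to dopamine beta-hydroxylase, rose in males from 312 ± 27.3 to 420.1 ± 12.7 (SD, n = 5 each; 0.43 ± 0.065, limma adjusted p = 0.000487), with 0.15 ± 0.13 in females. Akr1a1, an aldehyde reductase, rose in males by 0.15 ± 0.048 (0.039). The aldehyde dehydrogenase genes Aldh2 and Aldh9a1 fell in males by 0.51 ± 0.13 (0.0159) and 0.23 ± 0.076 (0.0442), and the alcohol dehydrogenase gene Adh5 by 0.16 ± 0.053 (0.0478). Aldh2 had the smallest p of the list in females, at -0.77 ± 0.28 (0.168). The calls of Akr1a1 and Aldh9a1 were lost in 11 of 19 settings each and that of Adh5 in 12. Pnmt, which makes adrenaline, the noradrenaline transporter gene Slc6a2, Slc18a1 and Slc22a3 were below the filter in both sets.

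Catecholamine receptors gave no call by limma in either set, with 7 genes tested in females (1 at an unadjusted p under 0.05) and 5 in males (0). The smallest p was that of the dopamine receptor Drd1 in females (-0.47 ± 0.16, limma adjusted p = 0.132) and of Adra2a, an adrenergic receptor, in males (-0.24 ± 0.12, 0.178). The serotonin and histamine genes gave no call either, with 7 tested in females (2 at an unadjusted p under 0.05) and 6 in males (1). Their smallest p were those of the serotonin receptor Htr2c in females (-0.46 ± 0.12, 0.0678) and of the histamine receptor Hrh3 in males (-0.36 ± 0.16, 0.141).

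**Figure D3:**
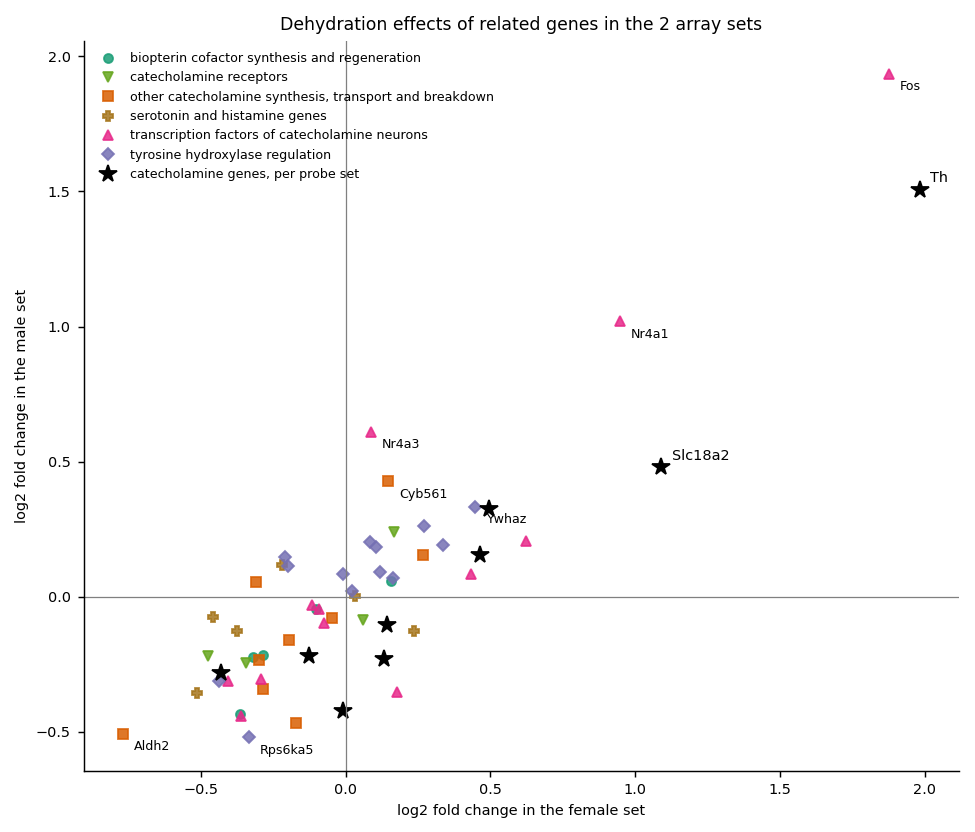
Log2 fold change with dehydration in the female set (x axis) and in the male set (y axis) for genes of the 6 other pathway lists tested in both sets, by list, with the catecholamine member probe sets as black stars. Th (1.98 and 1.51), Fos (1.88 and 1.94) and Nr4a1 (0.95 and 1.02) lie far to the upper right, and most other points lie within 0.5 of 0 on both axes.

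Markers of other catecholamine cells were read beside Th. Of the dopaminergic list, which holds the members Slc6a3, Slc18a2 and Ddc, 5 of 6 genes on the array were tested and 0 passed in either set (each gene by its brightest probe set). Its summed signal ran from 318.9 to 352.4 in control females and from 285.7 to 378.8 in dehydrated females, and from 342.9 to 420.1 and from 313.6 to 360.6 in males. The median log2 fold change of the list was 0.43 in females and 0.085 in males, beside -0.028 and -0.042 over all probe sets. In females the dimmer Slc18a2, Slc6a3 and Nr4a2 had values above 0, and Ddc and Aldh1a1, which make up most of the sum, had values below 0 (-0.29 ± 0.15 for Aldh1a1). Pitx3, a defining factor of midbrain dopamine neurons, had group means of 0.8 to 1.75, at the bottom of the scale. Of the noradrenergic list, Phox2a alone was above the filter, at 0.18 ± 0.21 and -0.35 ± 0.16 (limma adjusted p = 0.691 and 0.159), and Dbh, Slc6a2, Pnmt and Hand2 were below it.

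Markers of mural cells and meninges were lower with dehydration: 6 of 15 fell and 0 rose in females, and 13 of 15 fell and 0 rose in males. Their summed signal ran from 4360 to 5889 in control and from 2926 to 3312 in dehydrated females, and from 5643 to 12440 and from 2952 to 7257 in males. Beside these and the following counts, 1.19% of all probe sets fell and 1.77% rose in females, and 9.38% fell and 8.32% rose in males. Oligodendrocyte markers fell for 4 of 10 genes in females and 0 in males, and astrocyte markers for 1 and 3 of 11. Microglia and macrophage markers fell for 0 of 10 genes in females by limma (2 at an unadjusted p under 0.05) and for 4 of 9 in males, with a male median of -0.42. Blood markers fell for 1 of 2 in females and 2 of 2 in males, among them the haemoglobin gene Hbb in males (-0.97 ± 0.097, limma adjusted p = 1.5e-05). Ependyma and choroid plexus markers fell for 0 of 4 in females (0 at an unadjusted p under 0.05) and 2 of 4 in males. The remaining lists gave 1 call, a fall of Hcrt among 7 other hypothalamic neuron markers in males. Of 8 magnocellular markers 3 rose in each set, Calb2, Pdyn and Creb3l1, with 0 falling in females and 1, Cartpt, in males. The hormone genes themselves did not pass in either set. Avp gave 0.33 ± 0.19 in females and 0.082 ± 0.087 in males, and Oxt 0.40 ± 0.19 and 0.020 ± 0.099. Nos1 and Gal did not pass either. The part of these lists in the Th, Maob, Aldh2 and other differences was not tested.

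The probe sets with a pattern most like that of Th were taken by the root mean square difference of log2 values, each relative to the mean of its own set's controls, over the 18 arrays and among 14773 probe sets with a single symbol. The nearest was Slc12a1, a sodium, potassium and chloride cotransporter, at 0.276, with log2 fold changes of 1.94 ± 0.19 in females and 1.65 ± 0.16 in males. Caprin2, an RNA-binding protein (0.322), Vgf, a secreted granule protein (0.327), Rnf138l1 (0.339) and Rasd1, a Ras-related protein (0.361), followed, with log2 fold changes from 1.48 to 1.84. Under other scalings and offsets 4 or 5 of these 5 were again among the nearest. The nearest member was Slc18a2 1384933_at at place 101 (0.744), then Slc18a2 1369131_at at place 615 (0.974) and Slc6a3 1368601_at at place 1284. Only probe sets above the filter in both sets were ranked, and Slc18a2 1384933_at was above it in females through its dehydrated arrays only. The ranking uses the dehydration values that chose the genes. It is a description of likeness, and all these probe sets share the same arrays.

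**Figure D4:**
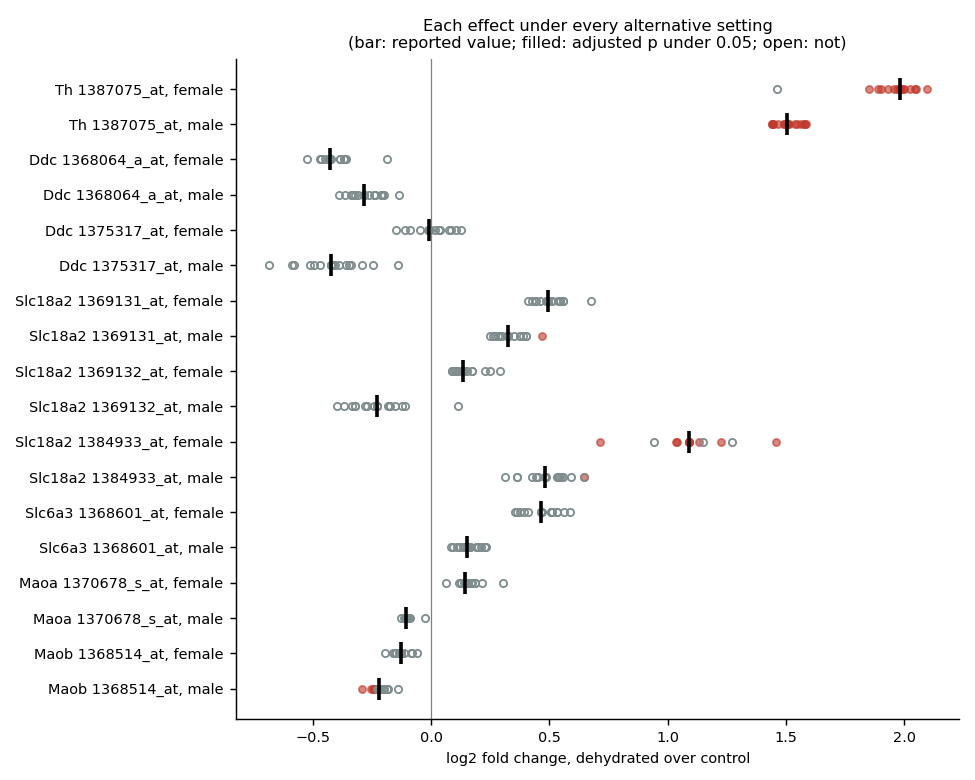
Log2 fold change with dehydration of each member probe set tested, under every alternative setting (dots) and as reported (black bars); filled dots had an adjusted p under 0.05 and open dots did not. Th stays between 1.44 and 1.58 in males and reaches down to 1.46 in females only with dehydrated female array 5 included, the 1 setting in which it did not pass.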

How the data were processed

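The deposited intensity values are 1 linear signal per probe set and array, made by the authors with GCOS 1.2 (males) and MAS5 (females), per the submitters' processing notes; their background and probe summary settings are not given in the sources used here. Arrays were brought to a common trimmed mean of 500 (2% off each end), 32 was added and log2 taken. Of 31099 probe sets 57 controls were dropped. Probe sets with a mean log2 value above the 30th percentile over the arrays of a fit entered limma 3.58.1 in R 4.3.3 (lmFit, eBayes with a mean-variance trend, Benjamini-Hochberg, threshold 0.05), and the script was tested on simulated data. Female and male dehydration were fitted on their own arrays, the difference of effects on all 18, and control females against control males on 9. The number of arrays limits precision. The SE over all probe sets had a median of 0.17 in females and 0.12 in males. Values of members below the filter come from the fit without it.

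Symbols came from the platform annotation, updated by Entrez ID: 20826 probe sets had 1 symbol, 436 several and 9780 none. Promoters came from RefSeq (GRCr8). A gene outside the member list is represented by its brightest probe set. Named were all members and the 5 probe sets most like Th. Of each other list, up to 4 genes past the threshold per direction were named, or else the one with the smallest p. Nr4a2, Qdpr, Phox2a, Pitx3, Aldh1a1, Hbb, Hcrt, Calb2, Pdyn, Creb3l1, Cartpt, Nos1 and Gal were named after their values were seen. The members and lists were chosen with earlier results of these data known. Dehydrated female array 5 was left out by the rule that chose the members, and its Avp and Oxt signals go against its label. Alternatives were quantile normalization, median centring, other offsets and filters, array weights, no trend, 1 fit with all 4 groups, array 5 included, and each array left out. Detection calls and scanner files were not used. Figures were drawn with matplotlib 3.10.9 in Python 3.11.15.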

Additional observations from a re-analysis of the deposited data

Results flagged for a closer look

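Dehydrated female array 5, left out of the comparisons, had Avp and Oxt signals far below the other arrays and read above every control female on 10 of the 13 member probe sets. Its signals were 158 for Ddc 1368064_a_at, 42.9 and 78.3 for the Gch1 probe sets 1368503_at and 1387221_at, and 66.8 for Dbh. For Slc18a2 they were 140 (1369131_at), 89.8 (1369132_at) and 68.6 (1384933_at), for Slc6a3 81.5 (1368601_at) and 4.97 (1368602_at), and for Maoa 577. Its Th signal of 63.1 was below every other array. For Slc18a2, 3 values stood apart from the other arrays of their group, by the gap to the nearest array over the group's range. These were control male 1 on 1369131_at (highest, 0.717), control female 1 on 1369132_at (highest, 0.903) and dehydrated male 1 on 1369132_at (lowest, 0.737). In all 3 of 52 groups of arrays stood apart so, and chance flags about 1 in 20.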

How the results depend on the processing

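The number of probe sets past the threshold in females, 643, was 290 without the mean-variance trend, 1709 with array weights, 2322 in 1 fit with all 4 groups, 1 with array 5, and 210 to 886 when single arrays were left out. In males, 3846 became 2270 in 1 fit with all 4 groups and 2839 to 4149 when single arrays were left out. For the difference between the effects, 7 became 20 (quantile), 12 (median centring), 11 (offset 100), 2 (no filter), 114 (array weights) and 1 to 55 when single arrays were left out. With array 5 it was 0 by limma, with 1707 probe sets at an unadjusted p under 0.05. For the control arrays 5924 became 4198 to 7280 when single arrays were left out and 4330 to 7324 under the other settings. Median centring turned 384 higher and 259 lower to 348 and 114 in females, and 1808 and 2038 to 2710 and 1091 in males.

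Th passed in 17 of 18 settings in females (1.46 with array 5) and in 19 of 19 in males; its difference between sets was -0.042 with array 5. Ddc 1375317_at in females, -0.0084, turned to 0.035 (quantile), 0.034 (centring), 0.11 (array weights) and 0.019 (array 5), with -0.15 to 0.12 when single arrays were left out, 4 of them reversed. Slc18a2 1369132_at in males ran from -0.37 to 0.12 when single arrays were left out, reversed without dehydrated male 1 alone. The Ddc 1368064_a_at difference between sets was 0.10 with array 5, and its control difference -0.032 under centring. Akr1b1 in females was -0.10 with array 5. The cause was not tested. No paired analysis was possible because the labels give the groups compared no shared replicate numbers. Dim probe sets limit what can be read for Gch1, Dbh and Slc6a3.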
